A study of Mus musculus with 8 samples.

Results

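The genes for the proteins of the cytosolic ribosome were followed in 8 mouse tumors, and they made up 86 of the 54532 genes in the count table. Members were protein-coding genes named Rpl or Rps followed by a digit, together with Rplp0, Rplp1, Rplp2 and Rpsa. The Rps6k kinase genes and names that carry -ps were left out. Of the 86 genes, 52 were named for the large subunit and 33 for the small subunit. The remaining gene, Rps19bp1, was taken in by its name alone and encodes a binding partner of Rps19, not a ribosomal protein. A total of 85 genes had enough counts to be tested, and Rpl10l, a paralog of Rpl10, had 0 counts in all 8 tumors.

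The tumors came from 4T1-FLuc, a luciferase-carrying line of the mouse mammary carcinoma 4T1, a model of triple-negative breast cancer (TNBC). The cells were injected under the skin of female BALB/cJ mice at 6 weeks of age, which are immunocompetent hosts of the strain from which 4T1 came. The 4 saline mice received the vehicle, given as PBS in the treatment label. The 4 treated mice received mAb-DXd/IMQ, labelled HumCD276-Dxd/IMQ, a humanized antibody to CD276 that carries both the topoisomerase I inhibitor DXd and the Toll-like receptor agonist IMQ, at 16 mg/kg into the tail vein every 4 days for 5 courses. Each library held messenger RNA of bulk tumor tissue at the endpoint. Fewer cells of a type and less RNA per cell therefore cannot be told apart in any value given here. The paper reports a much smaller average volume of treated than of saline tumors at the endpoint, and extensive cell death in treated tumors. The part of tumor size in the values given here was not tested. Total counts ran from 34591912 in treated replicate 4 to 69582375 in saline replicate 4. A count of 3, taken as the floor, corresponded to 0.0431 to 0.0867 CPM (counts scaled to a common library total) on unadjusted totals. All other CPM values used TMM-scaled totals, on which the 3 counts of Rpl3l in saline replicate 2 were 0.0677 CPM. Such floors and intervals cover counting error only.

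The cytosolic ribosome joins a small subunit, which reads the messenger RNA, to a large subunit, which forms peptide bonds. Each subunit needs nearly all its proteins in equal number, and their messenger RNAs are among the most abundant in growing cells. Most of these messenger RNAs begin with a run of pyrimidines, the terminal oligopyrimidine tract, through which the mTOR pathway and the protein Larp1 set their translation. Free Rpl5 and Rpl11 bind Mdm2 and thereby link ribosome assembly to p53.

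Tumor identity was read from marker genes first. All 6 epithelial markers were present, and their summed level was 2339, 1684, 2266 and 2048 CPM in saline replicates 1 to 4 and 3072, 2415, 1885 and 1913 CPM in treated replicates 1 to 4. Krt18 had the highest mean CPM of them, although Krt8 lay above it in all 4 saline tumors, and 0 of the 6 passed the thresholds. Of the receptors that define TNBC by their absence, Pgr stayed at 0.161 to 0.808 CPM and Esr1 at 13.6 to 20.6 CPM, while Erbb2 was measured at 74.3 to 118 CPM. The label was therefore met by the epithelial markers and by Pgr, and Esr1 and Erbb2 transcripts were not at 0.

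The start sites of 8 members are shown because the pyrimidine tract is the sequence for which these messenger RNAs are best known, although most members with an entry had no long run at the annotated start. Each line gives the 20 bases before the annotated start and the 10 bases from it, with the longest run of C or T in capitals. The sequences are from RefSeq on GRCm38.p6. Rps6, Rpl28, Rpl35 and Rplp2 show such a run, Rps10, Rpl31 and Rpl22l1 lay at the ends of the range of log2 fold changes given below, and Rps4x, which had the lowest log2 fold change, has none.
Rps6 (chr4:86857358-86857387, minus strand): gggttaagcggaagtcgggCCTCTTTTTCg
Rpl28 (chr7:4792945-4792974, plus strand): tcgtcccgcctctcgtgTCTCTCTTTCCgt
Rpl35 (chr2:39005122-39005151, minus strand): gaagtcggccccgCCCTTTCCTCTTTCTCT
Rplp2 (chr7:141447631-141447660, plus strand): cccactgcgtcagcgTCTTCCTTTCgccgc
Rps10 (chr17:27635235-27635264, minus strand): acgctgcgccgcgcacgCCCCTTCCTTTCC
Rpl31 (chr1:39367831-39367860, plus strand): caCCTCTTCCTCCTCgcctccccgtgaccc
Rpl22l1 (chr3:28805488-28805517, plus strand): cgtgcgtgcggcgcaagcccgTTCTCTTCC
Rps4x (chrX:102189382-102189411, minus strand): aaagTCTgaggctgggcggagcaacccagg

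Of the 86 members, 66 had an entry in the promoter table, and the first entry of each gene was used. A run of at least 8 C or T within these 30 bases was found in 26 of the 66 members, or 39.4%, against 12.4% of all 27025 promoters. The stricter form, a C at the annotated start followed by 4 C or T, was found in 13 of 66 members, or 19.7%, against 2.49% of all promoters. In the whole 300 bases and on both strands, the letters CCGGAAG were found in 25 members, or 37.9%, against 9.12% of all promoters. CTCTTTCC was found in 9 members, or 13.6%, against 3.04%, and AAGATGGC in 5 members, or 7.58%, against 2.88%. TATAAA was found in 6 members, or 9.09%, against 14.2%. These shares were not tested. The tracts were then set beside the response. The median log2 fold change was 0.09 over the 26 tested members with a run of at least 8 C or T and 0.19 over the 39 tested members without it, while it was 0.27 over the 13 with the stricter form and 0.12 over the 52 without it.

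The family took a large share of every library. Its summed counts were 6.15%, 7.01%, 7.05% and 7.02% of all counts in saline replicates 1 to 4, and 8.26%, 6.85%, 6.77% and 8.59% in treated replicates 1 to 4. The 95% Wilson intervals of these shares were 0.0120 to 0.0187 percentage points wide. Treated replicates 1 and 4 lay above all saline tumors, whereas treated replicates 2 and 3 lay below saline replicates 2, 3 and 4. The mean share was 6.81% ± 0.437 in saline and 7.62% ± 0.942 in treated tumors (SD, n = 4 each), a difference of 0.812 percentage points with overlapping groups. It fell to 0.489 without treated replicate 4 and rose to 1.09 without treated replicate 3. Counts on the large subunit genes were 1.21 ± 0.00989 times those on the small subunit genes in saline and 1.24 ± 0.0536 times in treated tumors (SD, n = 4 each).

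**Figure D1:**
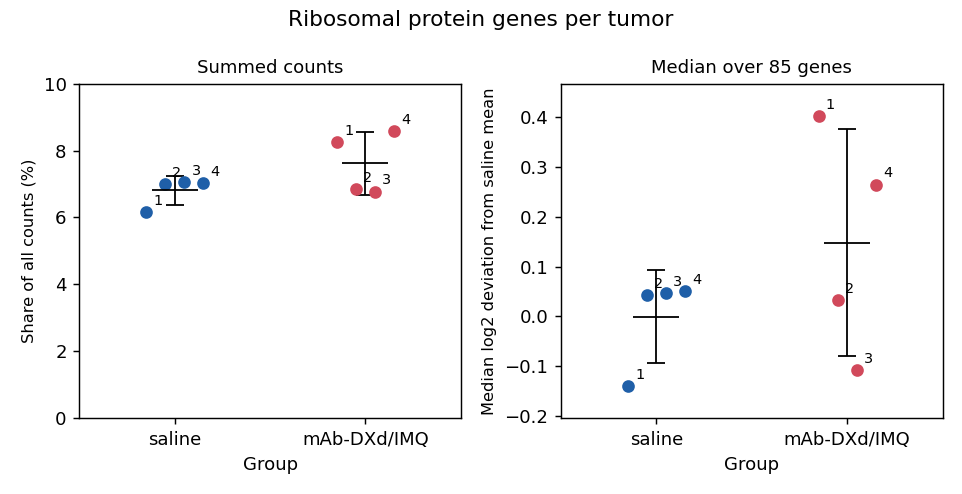
Summed counts of the ribosomal protein genes as a percent of all counts (left) and the median over 85 genes of the log2 deviation from the saline mean (right), with points for tumors numbered by replicate, horizontal bars for means and error bars for SD (n = 4). Saline replicate 1 lies below the other saline tumors, and treated replicates 1 and 4 lie above treated replicates 2 and 3 in both panels.

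The typical gene was followed in the same way. The median over the 85 tested members of log2 CPM, taken relative to each gene's saline mean, was -0.14, 0.04, 0.05 and 0.05 in saline replicates 1 to 4 and 0.40, 0.03, -0.11 and 0.26 in treated replicates 1 to 4. Treated replicates 1 and 4 were again the highest tumors, here with treated replicate 1 above treated replicate 4, and saline replicate 1 was the lowest. In all, 68, 48, 31 and 76 of the 85 members lay above their saline mean in treated replicates 1 to 4. The treated tumors differed from each other more than the saline tumors did, with a larger SD in 71 of 85 members. The highest of the 8 values was in treated replicate 1 for 41 members and in treated replicate 4 for 26 members. The median coefficient of variation of a member was 9.16% among saline and 18.8% among treated tumors, compared with 15.8% and 20.9% over all tested genes. It was 7.91% and 15.1% over the 2221 tested genes outside the family at 100 CPM or more. Mitochondrial ribosomal protein genes had 8.40% and 16.1%, and nuclear-encoded respiratory chain genes had 7.53% and 20.5%. A larger spread among treated tumors was thus not particular to the family. The subunits were set side by side in both high tumors. In treated replicate 1 the median deviation was 0.40 for large and 0.39 for small subunit genes, and in treated replicate 4 it was 0.21 and 0.35.

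**Figure D2:**
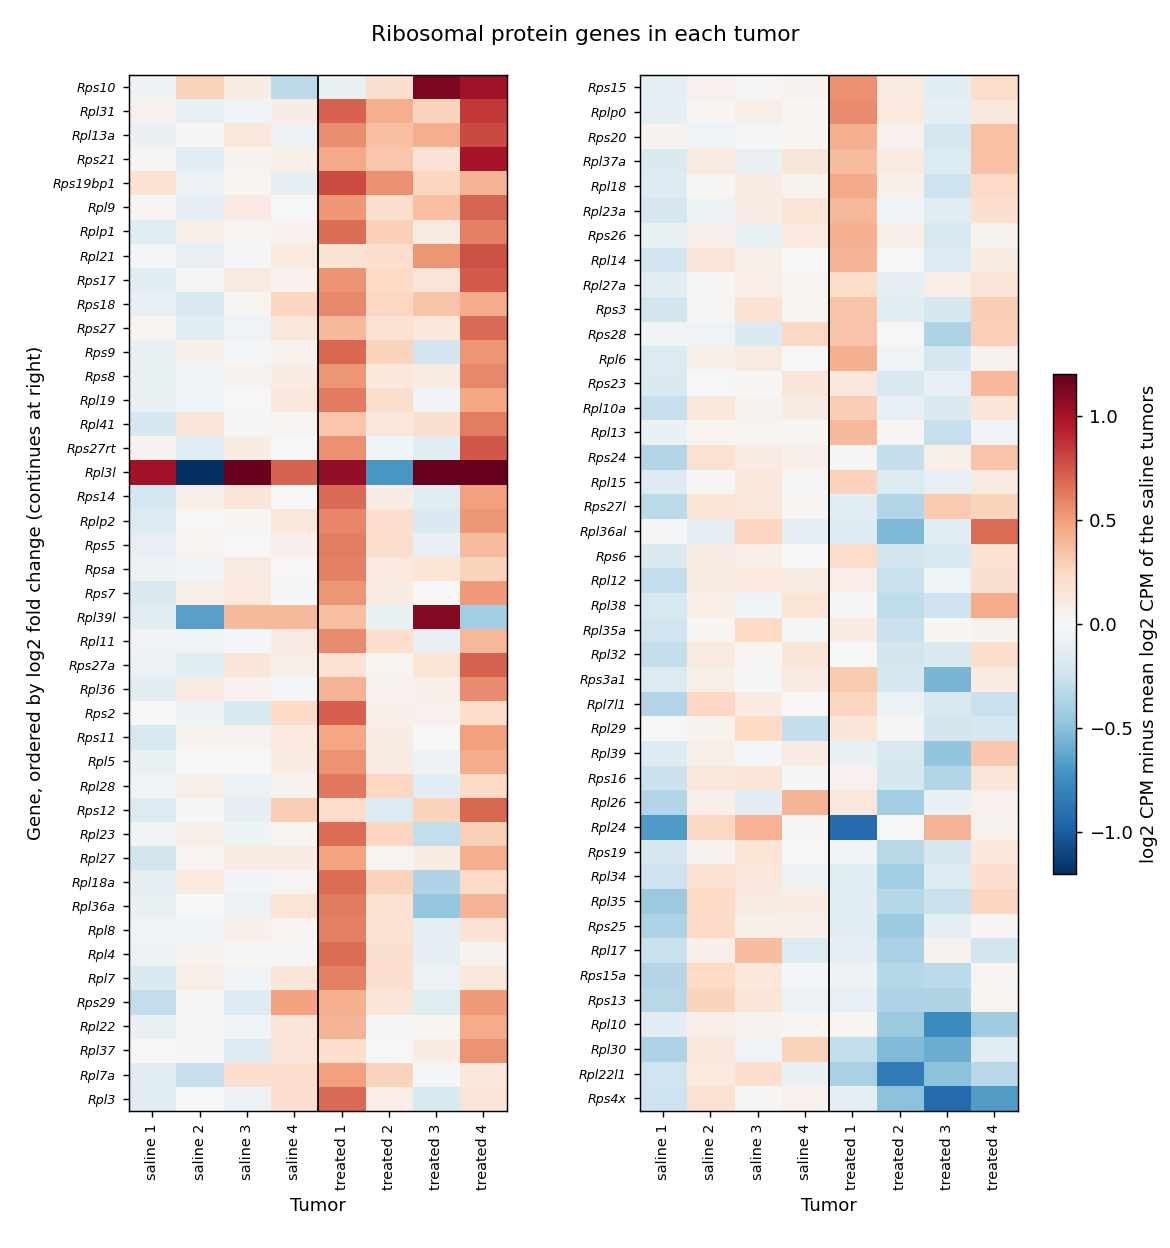
Log2 CPM of the 85 tested genes in each tumor (columns) minus the mean log2 CPM of the 4 saline tumors, ordered by log2 fold change from the top left to the bottom right, with colors limited at 1.2 on either side. Treated replicates 1 and 4 are mostly red, treated replicates 2 and 3 are mixed, and Rps4x, Rpl22l1, Rpl30 and Rpl10 at the bottom right are blue in most treated tumors.

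In the edgeR fit, no member passed the thresholds of a log2 fold change beyond 0.58 in either direction with an adjusted p under 0.05. By its quasi-likelihood test, 0 of the 85 tested members were called, beside 197 of all 18511 tested genes, or 1.06%. At an unadjusted p under 0.05, 12 members were higher in treated tumors, which was 14.1% of the members against a background of 9.13%, and 3 were lower, which was 3.53% against 9.79%. DESeq2 and limma-voom each called 0 members as well, while they called 4.25% and 0.940% of all tested genes. At an unadjusted p under 0.05 they had 19 members (22.4%, against 20.1% of all tested genes) and 16 members (18.8%, against 18.9%). In DESeq2, 6 members had an adjusted p under 0.05 with smaller fold changes, or 7.06% against 7.49%. The count of 15 members at an unadjusted p under 0.05 in edgeR (17.6%, against 18.9%) depended on the scaling and on single tumors. It was 25 with upper-quartile factors, 28 with total counts only and 29 without treated replicate 3, or 29.4%, 32.9% and 34.1% of members against 19.4%, 19.1% and 17.9% of all tested genes, and it was 8 with length correction and the replicate block together, or 9.41% against 14.2%. With upper-quartile scaling 1 member, Rpl13a, was called (1.18%, against 1.18% of all tested genes). An edgeR adjusted p under 0.1 was reached by 4 members, Rpl13a, Rpl31, Rps19bp1 and Rpl22l1, which was 4.71% against 5.03% of all tested genes. The groups did not overlap in 11 members, of which 10 were higher in treated tumors (11.8%, against 5.97% of all tested genes) and 1 was lower (1.18%, against 7.1%). The 10 include Rps19bp1. Of the 14454 tested genes no longer than the longest tested member, 964 were higher and 647 lower without overlap. Of the 77 tested mitochondrial ribosomal protein genes, 12 were higher and 0 lower. These shares and counts of lists received no test.

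The members' median log2 fold change was 0.21, with quartiles of -0.01 and 0.30, while it was 0.02 over all tested genes and 0.06 over the 14454 tested genes no longer than the longest tested member. The log2 fold change was positive in 63 of 85 members (74.1%), against 52.6% of all tested genes. The small subunit genes had a median of 0.22 (n = 33) and the large subunit genes of 0.19 (n = 51). The 2221 tested genes outside the family at 100 CPM or more had a median log2 fold change of -0.08, with 37.5% positive, but they were also longer, with a median of 5153 bases against 1734 for the members, so level and length cannot be told apart in this comparison. The members' median stayed positive with the other scalings, from 0.21 to 0.25, but it fell to 0.08 without treated replicate 1 and to 0.13 without treated replicate 4. Single members ran from -0.53 to 0.64, with a median approximate standard error of 0.16.

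**Figure D3:**
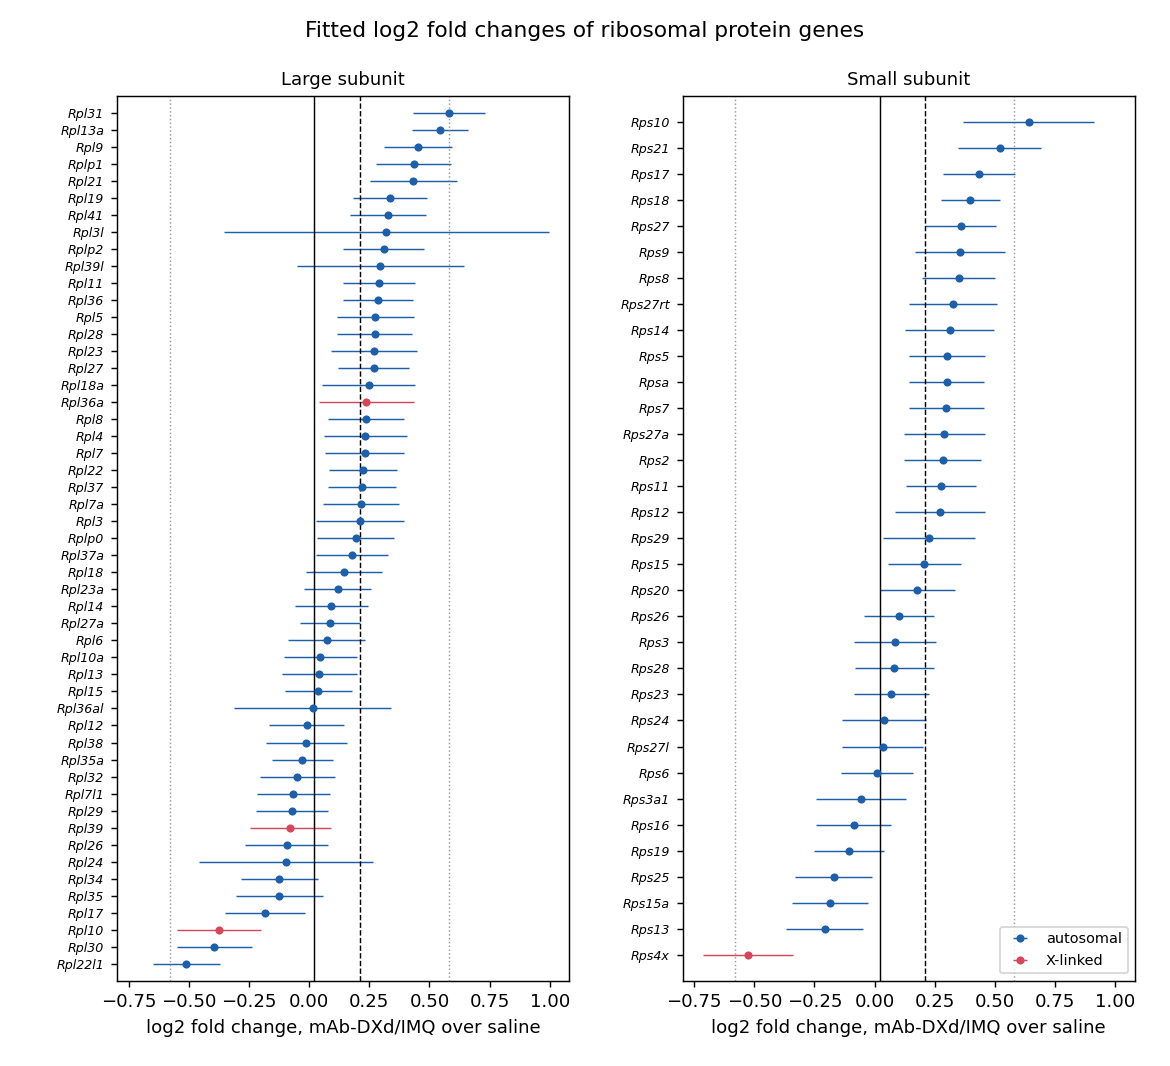
Fitted log2 fold changes of the tested large subunit (left) and small subunit (right) genes, with approximate standard errors as bars, and Rps19bp1 not drawn. The solid line marks the median over all tested genes (0.02), the dashed line the median over members (0.21) and the dotted lines the fold change thresholds. The X-linked Rps4x and Rpl10 lie near the lower end, while the X-linked Rpl36a lies near the median of the family.

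Gene length was considered because it moved with the fold change across the whole table. When all 18511 tested genes were split by length into 10 classes of nearly equal size, the median log2 fold change was 0.15 in the shortest class, up to 864 bases, and -0.13 in the longest, from 8882 bases. The ribosomal protein genes were short, with a median length of 1734 bases against 3516 over all tested genes, and 11, 22, 23 and 12 of them fell in the 4 shortest classes, 8, 5, 2 and 2 in the next 4 and 0 in the longest 2. Within the 4 shortest classes their medians were 0.22, 0.09, 0.27 and 0.07, beside 0.15, 0.15, 0.11 and 0.09 for all tested genes of the same classes. So the members' median lay above that of genes of their length in the shortest class and in the class from 1561 bases, and below it in the other 2. In the next 2 classes the members lay above, at 0.22 against 0.05 and 0.14 against 0.02, and the following 2 classes, with medians of -0.01 against -0.01 and -0.07 against -0.04, held too few members to compare. Across the 85 members, which are not independent replicates, the rank correlation between length and log2 fold change was -0.12. When the relation with length was fitted in each tumor and removed, the members' median fell to 0.11 (with -0.01 over all tested genes) and 52 of 85 members were positive. Adding base composition to that correction gave 0.09 and 51 members. The part of length in the members' median was not tested further.

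**Figure D4:**
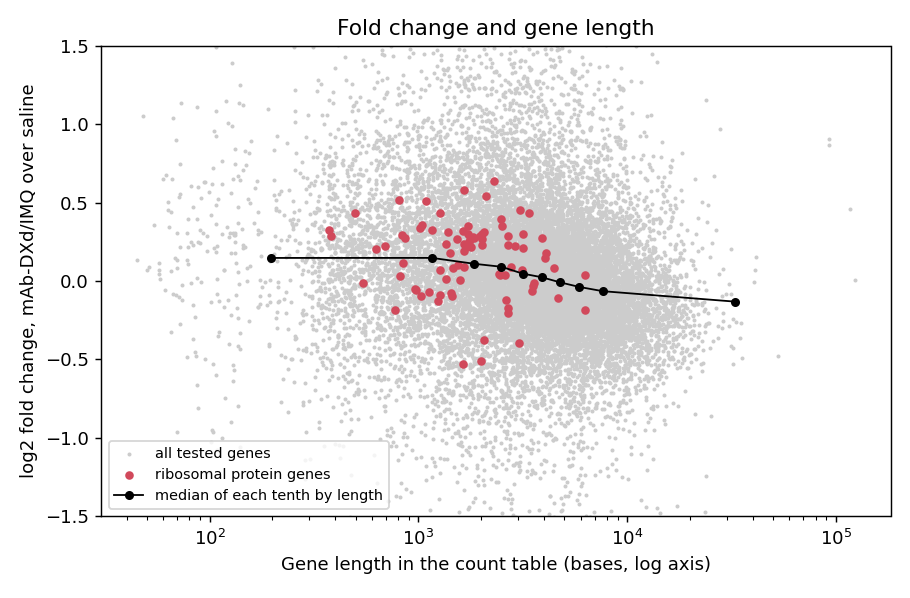
Log2 fold change against gene length (log axis) for all tested genes (gray) and the ribosomal protein genes (red), with black points for the median of each of 10 length classes of all tested genes. The axis stops at 1.5 on either side. The medians fall from 0.15 to -0.13, and the ribosomal protein genes lie at the short side of the range.

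The ribosomal stalk, made of Rplp0, Rplp1 and Rplp2, recruits the translation factors that drive elongation. Rplp1 (ENSMUSG00000007892) had 1111, 1281, 1259 and 1272 CPM in saline and 1958, 1499, 1328 and 1869 CPM in treated replicates 1 to 4. All 4 treated tumors lay above all saline tumors, and treated replicate 3 did so narrowly. Its log2 fold change was 0.43 ± 0.16 (SE), with an edgeR adjusted p of 0.167. Rplp2 had 427, 482, 488 and 527 CPM in saline and 722, 552, 425 and 686 CPM in treated replicates 1 to 4. Here treated replicate 3 was below every saline tumor, and the log2 fold change was 0.31 ± 0.17 (edgeR adjusted p = 0.349). Rplp0, the scaffold of the stalk, had 1287, 1407, 1455 and 1408 CPM in saline and 2052, 1501, 1280.2 and 1522 CPM in treated replicates 1 to 4. Only treated replicate 1 stood well apart, and the log2 fold change was 0.19 ± 0.16 (edgeR adjusted p = 0.553), or 0.04 without that tumor. Without it Rplp2 had 0.20 and Rplp1 had 0.34. The 3 stalk genes thus had positive values with the same highest tumor, and 0 of 3 passed.

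Among large subunit genes, Rpl31 and Rpl13a came nearest to the thresholds. Rpl31 (ENSMUSG00000073702), whose protein lies at the exit of the peptide tunnel, had 742, 669.5, 691 and 762 CPM in saline and 1167, 970.1, 861 and 1289.8 CPM in treated replicates 1 to 4. The groups did not overlap, and the fitted difference was 0.58 ± 0.15 on the log2 scale (edgeR adjusted p = 0.0736). Of its transcript windows of 100 bases, 63.2% occurred exactly in other annotated genes. Those genes held 36577 counts over all tumors, against 344082 on Rpl31. Rpl13a (ENSMUSG00000074129), which is also known for a role in silencing inflammatory transcripts outside the ribosome, had 47.8, 51.1, 55.6 and 48.5 CPM in saline and 74.7, 64.9, 68.6 and 87.8 CPM in treated replicates 1 to 4. It had the lowest adjusted p of the family, at 0.0505 by edgeR, with a log2 fold change of 0.55 ± 0.12 and all 4 treated tumors higher. With upper-quartile scaling, which moved the median of all tested genes to 0.07, Rpl13a passed both thresholds at 0.59 with an edgeR adjusted p of 0.0406. Over the settings other than leaving out a tumor its adjusted p ran from 0.00285 to 0.241. Its level was low for a ribosomal protein gene, and 35.4% of its exon bases are overlapped by other annotated genes on the same strand, so its value is uncertain.

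Rpl5 and Rpl11, which bind Mdm2 when free, had similar patterns. Rpl5 had 1696, 1798, 1806 and 1912 CPM in saline and 2614, 1931, 1732 and 2454 CPM in treated replicates 1 to 4. Rpl11 had 654, 653, 666 and 719.6 CPM in saline and 999, 776, 631 and 888 CPM in treated replicates 1 to 4. For both genes treated replicates 1 and 4 were the highest tumors and treated replicate 3 fell within or below the saline range. The log2 fold changes were 0.28 ± 0.16 for Rpl5 (edgeR adjusted p = 0.388) and 0.29 ± 0.15 for Rpl11 (edgeR adjusted p = 0.325), and without treated replicate 1 they were 0.17 and 0.18. Rpl3, which lines the peptidyl transferase center, had 919, 1002, 961 and 1160.1 CPM in saline and 1608, 1065, 885 and 1119 CPM in treated replicates 1 to 4, with a log2 fold change of 0.21 ± 0.18. Treated replicate 1 alone lay above the saline range, and without it the log2 fold change was 0.02. Rpl41, the smallest ribosomal protein, had 1668, 2135, 1938 and 1955 CPM in saline and 2418, 2110.2, 2194 and 2939.8 CPM in treated replicates 1 to 4, and its log2 fold change was 0.33 ± 0.16 (edgeR adjusted p = 0.287). The groups overlapped there because treated replicate 2 lay just under saline replicate 2.

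In the small subunit, Rps21 and Rps10 had the highest values. Rps21 (ENSMUSG00000039001) had 494, 449, 504 and 516 CPM in saline and 671, 615, 554 and 974 CPM in treated replicates 1 to 4. The groups did not overlap and treated replicate 4 was far above the others, without which the log2 fold change was 0.33. With all tumors, its log2 fold change was 0.52 ± 0.17 (edgeR adjusted p = 0.139), and 0% of its transcript windows of 100 bases occurred exactly in another annotated gene. Rps10 (ENSMUSG00000052146) had the highest fitted value of all members, 0.64 ± 0.27 (edgeR adjusted p = 0.235), on levels of only 8.09, 10.2, 8.96 and 6.77 CPM in saline and 7.94, 9.59, 18.5 and 17.0 CPM in treated replicates 1 to 4. That value was carried by treated replicates 3 and 4, and it turned to -0.11 when the counts of its 4 named pseudogenes were added to it. Rpsa, the laminin-binding protein of the small subunit, had 2587, 2629, 2881 and 2674 CPM in saline and 4095, 2925, 3012 and 3228 CPM in treated replicates 1 to 4. The groups did not overlap, yet the log2 fold change of 0.30 ± 0.16 had an edgeR adjusted p of 0.326, and it was 0.18 without treated replicate 1.

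Rps6 and Rps27a are the small subunit members best known outside the ribosome. Rps6, the substrate of the S6 kinases, had 1329.7, 1599, 1585 and 1507 CPM in saline and 1750.5, 1291, 1323 and 1696 CPM in treated replicates 1 to 4. Its groups overlapped, with treated replicates 1 and 4 above and treated replicates 2 and 3 below all saline tumors. The log2 fold change was 0.01 ± 0.15, and its sign changed with the length correction (-0.11). Rps27a, which is made as a fusion with ubiquitin, had 1190.3, 1128, 1387 and 1312 CPM in saline and 1408, 1279, 1403 and 2044 CPM in treated replicates 1 to 4. Treated replicate 4 stood apart there, and the log2 fold change of 0.29 ± 0.17 (edgeR adjusted p = 0.386) became 0.13 without it. Rps3a1, among the 3 most abundant members per length, had 1555, 1831, 1727 and 1863 CPM in saline and 2157, 1512, 1179.9 and 1859.6 CPM in treated replicates 1 to 4, with a log2 fold change of -0.06 ± 0.19. Its treated tumors lay on both sides of the saline range, and without treated replicate 3 the sign changed (0.08).

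The log2 fold change was negative in 22 of the 85 tested members, of which 3 were lower at an unadjusted p under 0.05. Rps4x (ENSMUSG00000031320), the X-linked gene of a small subunit protein, had 1677, 2252, 2008 and 2065 CPM in saline and 1842, 1414, 1049 and 1249 CPM in treated replicates 1 to 4. Treated replicates 2, 3 and 4 lay below every saline tumor, whereas treated replicate 4 was high in most of the family. Its log2 fold change was -0.53 ± 0.19 (edgeR adjusted p = 0.162), and it ran from -0.70 to -0.41 when single tumors were left out. Rpl10 (ENSMUSG00000008682), X-linked too and needed for the final maturation of the large subunit, had 1734, 1994, 1965 and 1929.6 CPM in saline and 1943, 1399, 1119 and 1419.8 CPM in treated replicates 1 to 4. The same 3 treated tumors were low, with a log2 fold change of -0.37 ± 0.17 (edgeR adjusted p = 0.272). Rpl30 had 131, 184, 164 and 204 CPM in saline and 138, 117, 111 and 155 CPM in treated replicates 1 to 4, with a log2 fold change of -0.39 ± 0.16 (edgeR adjusted p = 0.205). Only treated replicates 2 and 3 lay below all saline tumors. Counts on Rpl30 were outnumbered by those on a pseudogene, so this value is uncertain.

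The X chromosome held 4 members. Besides Rps4x and Rpl10, these were Rpl39, with a log2 fold change of -0.08 ± 0.17, and Rpl36a, with 0.24 ± 0.20. When single tumors were left out they ran from -0.23 to 0.03 and from 0.08 to 0.41, so the sign of Rpl39 is uncertain. Over the 450 tested protein-coding genes of the X chromosome the median was -0.13, compared with 0.00 over the 13918 on other chromosomes. Thus 3 of the 4 X-linked members were negative, against 293 of 450 X-linked protein-coding genes. Whether the position on the X chromosome bears on Rps4x and Rpl10 was not tested.

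The paralogs, which can replace a core protein in some tissues or have roles of their own, differed widely in level. Rpl22l1 (ENSMUSG00000039221), the paralog of Rpl22, was the only member with all treated tumors below all saline tumors. It had 118, 152, 161 and 132 CPM in saline and 107, 78.1, 99.1 and 111 CPM in treated replicates 1 to 4, with a log2 fold change of -0.51 ± 0.14 (edgeR adjusted p = 0.0868). Rpl22 itself had a log2 fold change of 0.22 with overlapping groups. The difference between the pair was not tested. Rpl22l1 kept its sign in each setting run, from -0.63 to -0.41. Rps27l, a p53-responsive paralog of Rps27, had 128, 179.9, 177 and 163 CPM in saline and 146, 126, 199 and 193 CPM in treated replicates 1 to 4, and its log2 fold change was 0.03 ± 0.17. Rps27rt had a log2 fold change of 0.33 ± 0.18, or 0.16 without treated replicate 4, and 89.5% of its transcript windows also occur in other genes, mostly in Rps27. Rpl7l1 had -0.07 ± 0.15 at 87.4 to 134 CPM. Rpl39l, known from the testis, stayed at 2.64 to 8.89 CPM (0.30 ± 0.35), and Rpl3l, the paralog of striated muscle, at 0.0677 to 1.46 CPM (0.32 ± 0.67). Rpl36al stayed at 0.878 to 2.02 CPM (0.01 ± 0.33). Rpl10l was at 0 in all 8 tumors, which allows at most 3 counts in each.

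Rps19bp1, the gene taken in by its name, had 20.8, 17.5, 18.7 and 17.0 CPM in saline and 31.8, 27.0, 22.04 and 24.5 CPM in treated replicates 1 to 4. The groups did not overlap, and the log2 fold change was 0.51 ± 0.14 (edgeR adjusted p = 0.0858).

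Levels per length ranged widely over the tested members, although nearly all core proteins of the ribosome are needed in equal number. In TPM, which scale counts by the gene lengths of the count table as well, the median member had 1162 TPM against 11.1 TPM for the median tested gene. Rplp1 (8140.3 TPM), Rpl41 (5238 TPM) and Rps3a1 (4909 TPM) were highest, and Rpl3l (1.69 TPM), Rpl36al (2.69 TPM) and Rpl24 (3.81 TPM) were lowest among tested members. A total of 49 members were at 1000 TPM or more and 20 from 200 to under 1000 TPM. Of the 16 below 200 TPM, 10 were neither paralogs nor Rps19bp1. These were genes of core proteins with far fewer counts per length than most of the family. Counts on other genes that share their sequence are given below. The gene lengths of the count table equaled the summed length of all exons annotated in GENCODE M21 for 82 of the 86 members. For the remaining members they differed from that sum. Counting every annotated exon lowers TPM where an annotation holds long side forms.

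Sequence shared with other genes was examined next. Transcripts of the 86 members were compared with all other annotated transcripts in windows of 100 bases, and 77 members shared at least 1 window with another gene. For 12 of them, the genes that share windows held more counts than the member itself. Rpl26 had 13330 counts over all tumors, while the pseudogene Gm15772 had 436538. Rps18 had 37071 counts and Gm11361 had 191912, Rps2 had 50296 and Rps2-ps10 had 208257, and Rps10 had 4098 and Rps10-ps2 had 104590. Even Rplp0, with 585719 counts, was outnumbered by Gm8730 with 615799. For Rpl30 it was Gm12191, with 187210 against 60459. Of the 12 outnumbered members 10 were below 200 TPM, and they include 9 of the 10 genes of core proteins below that level. By the percent of windows shared alone, the median was 1187 TPM over the 32 tested members with at least 50% of windows shared and 1162 TPM over the other 53, and the rank correlation of the shared percent with TPM across 85 genes was 0.03. The 4 members with at least 20% of their exon bases overlapped by another gene on the same strand, Rps10, Rpl13a, Rpl36al and Rpl24, had a median of only 8.64 TPM, against 1226 TPM for the other 81. The rule by which reads with several matches or in overlapping genes were counted is not given in the sources used here, so the levels of these members are uncertain and their part in the result was not tested. The pseudogenes named for members took 0.390% ± 0.0311 of counts in saline and 0.413% ± 0.0749 in treated tumors (SD, n = 4 each). Over the 51 tested members with less than 50% of windows shared and less than 20% of bases overlapped, the median log2 fold change was 0.18, with 37 positive. When the counts of 463 pseudogene-like genes were added to the members they resemble most, the median was 0.21, with 65 positive and 0 past the thresholds.

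**Figure D5:**
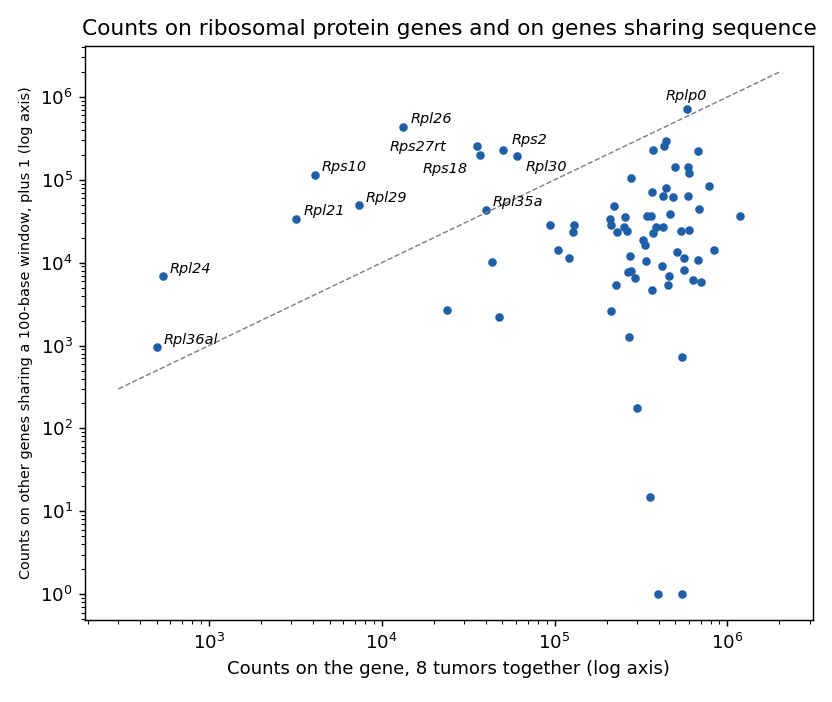
Counts on each ribosomal protein gene that shares a window of 100 bases with another gene, summed over 8 tumors (x, log axis), and counts on those other genes plus 1 (y, log axis). The dashed line marks equal counts, and the 12 named genes lie above it, among them Rpl26, Rps10 and Rpl24.

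Genes that act with the ribosomal proteins were read from lists. Of 36 ribosome biogenesis factors, 0 passed the thresholds, 13 were higher at an unadjusted p under 0.05 and 0 lower, and 31 had positive values, with a median log2 fold change of 0.25. Over all tested genes 9.13% were higher and 9.79% lower at that p, 52.6% were positive and the median was 0.02, and the same holds as background for each list below. Their summed level was 3321, 3587, 3511 and 3681 CPM in saline and 4818, 3967, 4083 and 3848 CPM in treated replicates 1 to 4, so here the groups did not overlap. Nhp2, a protein of box H/ACA particles, had 45.3, 51.8, 52.0 and 49.96 CPM in saline and 95.3, 70.6, 61.0 and 77.0 CPM in treated replicates 1 to 4. Its log2 fold change was 0.61 ± 0.14 with an edgeR adjusted p of 0.0536, which passed the thresholds with upper-quartile scaling (0.65), with total counts only (0.63), with both other filters, with DESeq2 (0.61), with the newer edgeR fit and without treated replicate 3 (0.70). Nop16 had 0.55 ± 0.18, or 0.35 without treated replicate 1, while Sdad1 (-0.07) and Polr1a (-0.04), the large subunit of RNA polymerase I, were the lowest of the list, and Polr1a changed sign with the length correction (0.05).

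Among 20 other genes with terminal oligopyrimidine messenger RNAs, which include translation elongation and initiation factors, 0 passed, 0 were higher and 2 were lower at an unadjusted p under 0.05, 14 were positive and the median was 0.11. Their summed level, led by Eef1a1, was 25497, 28188, 26554 and 27803 CPM in saline and 37854, 27552, 20737 and 25907 CPM in treated replicates 1 to 4. Treated replicate 1 was the highest and treated replicate 3 the lowest tumor, and treated replicate 4, which had the highest share of counts on ribosomal protein genes, lay within the saline range. Rack1 (0.31) and Nap1l1 (0.30) were highest, with 0.17 and 0.15 without treated replicate 1. The 2 lower genes were Eif3e (-0.42), whose groups did not overlap, and Eif4b (-0.30). Of 8 snoRNA host genes, 7 were positive with a median of 0.18, from Snhg15 (0.41, or 0.26 without treated replicate 3) and Snhg12 (0.29) down to Snhg6 (0.10, or -0.05 without treated replicate 4) and Snhg1 (-0.08, or -0.01 without treated replicate 2). None passed in edgeR, with 1 higher and 0 lower at an unadjusted p under 0.05.

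Of 12 genes for growth control of ribosomal protein synthesis, 0 passed, 0 were higher and 1 was lower at an unadjusted p under 0.05, and 4 were positive, with a median of -0.11. Eif4ebp1 (0.26, or 0.12 without treated replicate 1) and Myc (0.25, or 0.09 without treated replicate 3) were highest, and Maf1, a repressor of RNA polymerase III (-0.29), and Rptor (-0.25) were lowest. Among the 4 genes of the axis from ribosomal proteins to p53, 0 passed, and 1 was higher and 0 lower at that p. Cdkn1a, a p53 target, had 40.7, 29.9, 29.3 and 40.1 CPM in saline and 62.2, 51.1, 45.5 and 50.9 CPM in treated replicates 1 to 4, with a log2 fold change of 0.58 ± 0.15 and an edgeR adjusted p of 0.0702. Mdm2 (0.16), Trp53 (0.15, or 0.04 without treated replicate 3) and Mdm4 (0.03) had overlapping groups.

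The family was set beside a pair of other groups of genes for protein complexes. The 77 tested mitochondrial ribosomal protein genes had a median log2 fold change of 0.19, with 66 positive (85.7%) and 1 past the thresholds. The 82 tested nuclear-encoded respiratory chain genes had a median of 0.13, with 65 positive (79.3%) and 0 past the thresholds. Over all tested genes 1.06% passed. The cytosolic ribosomal protein genes, at 0.21 with 74.1% positive, lay close to both. Both other groups were also short, with median lengths of 2255 and 1559.5 bases. Differences between the groups and the part of length in them were not tested.

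Markers of other cell types were read beside these values. All 6 T cell markers were lower at an unadjusted p under 0.05, as were 9.79% of all tested genes, and their summed level was 29.4, 48.4, 45.0 and 38.3 CPM in saline and 26.5, 24.3, 11.9 and 21.6 CPM in treated replicates 1 to 4. Cd3g had the highest CPM of them in every tumor, and Cd2 passed the thresholds (-1.44, edgeR adjusted p = 0.0458). Of 5 neutrophil markers, 4 were lower at an unadjusted p under 0.05 and Csf3r passed (-0.80, edgeR adjusted p = 0.0402). S100a9 had the highest mean CPM of them, but Csf3r lay above it in all 4 treated tumors and in saline replicate 2. Their sum was 225, 84.9, 92.4 and 125.1 CPM in saline and 33.0, 49.4, 50.8 and 67.1 CPM in treated replicates 1 to 4. Of 6 B and plasma cell markers 4 were tested, 0 passed and 3 were lower at an unadjusted p under 0.05. Jchain had the highest mean CPM of them, and the summed level of all 6 was 2.74, 9.97, 2.58 and 35.5 CPM in saline and 1.63, 1.65, 1.88 and 1.24 CPM in treated replicates 1 to 4. Cd2 passed in 0 of the 8 fits that each left out 1 tumor (-1.69 to -1.27), and Csf3r passed without treated replicate 1 (-0.68) but in none of the other 7. Both also missed the thresholds with total counts only, with the replicate block and with length correction and the block together, and Csf3r missed them with upper-quartile factors. All 5 endothelial markers had positive log2 fold changes, with a median of 0.43 and 1 higher at an unadjusted p under 0.05. Their sum, in which Pecam1 had the highest mean, was 82.9, 209.2, 146 and 156 CPM in saline and 205, 182, 204 and 168 CPM in treated replicates 1 to 4. All 5 red blood cell markers were positive too, with a median of 0.62 and 2 higher at that p, against 9.13% of all tested genes. Their sum, in which Hbb-bs had the highest mean, was 17.4, 53.2, 22.97 and 39.996 CPM in saline and 79.6, 36.2, 61.2 and 47.0 CPM in treated replicates 1 to 4. Both sums overlapped between the groups. Of 5 fibroblast markers 1 was lower at an unadjusted p under 0.05, and of the markers of macrophages, skeletal muscle, keratinocytes and adipocytes and the 10 mitochondrially encoded genes 0 reached that p in either direction. In these 8 lists 0 genes passed the thresholds, and no marker of any list was at 0 in all tumors. Treated replicate 1, where the ribosomal protein genes were high, also had the highest epithelial sum and the lowest share of mitochondrially encoded counts (1.77%, against 2.40% to 3.61% in the other tumors), while treated replicate 4 had the highest share. Saline replicate 1, where the ribosomal protein genes were low, had the lowest macrophage sum (768 CPM, against 999 to 2474 CPM in the other tumors). Treated replicate 2 had the highest keratinocyte sum (507 CPM, against 32.4 to 223 CPM in the others). The part of these cell types and shares in the levels of the ribosomal protein genes was not tested.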

How the data were processed

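Messenger RNA of 8 tumors was purified with poly-T beads and sequenced on a HiSeq X instrument. Whether libraries kept strand is not given in the sources used here. The authors deposited raw counts per gene, with a gene length column and no normalization. Processing notes name HISAT2, HISAT, TopHat2 and mm39 without roles, but 53585 of 54495 shared gene IDs have the start and end of GENCODE M21 (GRCm38).

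Counts were tested with edgeR 4.0.16 in R 4.3.3 (filterByExpr, TMM, quasi-likelihood F-test, Benjamini-Hochberg over 18511 genes), and genes were called beyond 0.58 in log2 fold change with an adjusted p under 0.05. Standard errors are approximate, from the F statistic. CPM used TMM-scaled totals. Alternatives used DESeq2 1.42.0, limma 3.58.1, other scalings and filters, the replicate number as a block, length correction (splines with 5 degrees of freedom) and leaving out each tumor. The script was tested on simulated data. Chi-square per degree of freedom between libraries of a group was at least 33.7, so none was a second sequencing of another library in its group. The value cannot tell whether libraries came from the same tumor. Members and lists were chosen with earlier results of these data known. Named genes were 13 members of known role, the paralogs, the highest and lowest in fold change (4 each) or level per length (3 each), and from each other list the genes past the thresholds and the 2 highest and 2 lowest. Other genes were named after their values were seen.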

Additional observations from a re-analysis of the deposited data

Results flagged for a closer look

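In 10 of the 144 groups of 4 tumors examined, 1 tumor lay apart from the others by Dixon's criterion, and chance gives about 1 in 20. Saline replicate 1 was low in the share of counts on ribosomal protein genes (6.15%, others 7.01% to 7.05%) and in their median log2 deviation (-0.14, others 0.04 to 0.05). It was also low in Rplp1 (1111 CPM, others 1259 to 1281) and Sdad1 (47.1 CPM, others 52.3 to 52.99). Treated replicate 4 was high in Rps27a (2044 CPM, others 1279 to 1408). Treated replicate 1 was high in Nop16 (62.5 CPM, others 38.1 to 42.2) and Nap1l1 (483 CPM, others 321 to 346) and low in Csf3r (14.996 CPM, others 21.8 to 22.9). Saline replicate 4 was low in Snhg6 (39.9 CPM, others 43.5 to 44.2) and high in the summed adipocyte markers (40.0 CPM, others 21.9 to 24.8).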

How the results depend on the processing

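The count of members past the thresholds was 0 under each alternative except upper-quartile factors, which gave 1 (Rpl13a). That factor choice moved the median of all tested genes from 0.02 to 0.07, and the cause of the change was not tested otherwise. The members' median log2 fold change was positive under each alternative: 0.19 with the replicate block (same-numbered tumors are different mice), 0.11 with length correction, 0.08 with both and 0.09 with length and base composition, and 0.08 to 0.28 without 1 tumor each. The share difference was 0.489 to 1.09 percentage points without 1 tumor each and 0.836 to 0.862 with other denominators or with named pseudogenes. The corrections for base composition, the newer edgeR fit and the additions of pseudogenes were chosen after seeing the data. So was the subset of members with little shared or overlapped sequence (median 0.18).

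Some log2 fold changes of named genes changed sign, most of them near 0 but also those of Rps10 (0.64), Rpl3l (0.32) and Rpl39l (0.30). The cause was not tested. Only named genes are listed here and in the ranges below. Other members also changed sign, such as Rpl23a (0.12, down to -0.024 in other settings). With length correction the positive members fell from 63 to 52. With upper-quartile factors Polr1a had 0.0065. With limma-voom Rpl36al had -0.071 and Mdm4 -0.0084. With the replicate block Rpl36al had -0.041, Rps6 -0.00058 and Mdm4 -0.0085. With length correction Rpl36al had -0.12, Rps6 -0.11, Rps27l -0.10, Polr1a 0.050 and Snhg6 -0.040. With length correction and the replicate block Rpl36al had -0.17, Rps6 -0.12, Rps27l -0.11, Polr1a 0.052 and Snhg6 -0.072. With length and base composition Rpl36al had -0.12, Rps6 -0.11, Rps27l -0.084 and Polr1a 0.042. With the newer edgeR fit Rpl36al had -0.021. With named pseudogenes added Rps10 had -0.11, and with sequence-sharing pseudogenes added Rps10 had -0.11 and Rpl24 0.38.

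Leaving out 1 tumor each gave ranges of -0.070 to 0.078 for Rps6, -0.067 to 0.14 for Rps27l, -0.27 to 0.16 for Rpl36al, -0.19 to 0.020 for Rpl7l1, -0.059 to 0.63 for Rpl3l, -0.29 to 0.11 for Rpl24, -0.20 to 0.079 for Rps3a1 and -0.070 to 0.49 for Rpl39l. Outside the family they were -0.17 to 0.021 for Sdad1, -0.094 to 0.0052 for Polr1a, -0.059 to 0.21 for Mdm4 and -0.045 to 0.23 for Snhg6. Depth limits little here except for Rpl10l, Rpl3l, Rpl36al and Rpl24, while 4 tumors per group and the unknown counting of reads with several matches limit each value. Cd2 and Csf3r lost their calls with total counts only and with the replicate block, and Csf3r also with upper-quartile factors.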
